A study of Mus musculus with 6 samples.

Results

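The genes described here are 8 genes of inhibitory amino acid handling that were read in sorted mouse amygdala cells: the transporters *Slc6a11* and *Slc6a9*, the GABA-A receptor subunits *Gabra2*, *Gabra4*, *Gabrb1*, *Gabrg1* and *Gabrg3*, and the enzyme *Abat*. They were taken by name from the 32285 genes of the count tables, and each was found there once under its symbol. All 8 were higher in astrocytes than in pericytes in each of 3 libraries, with fitted folds from 3.68 (*Abat*) to 181 (*Gabrb1*). Of all genes tested, 42.8% were called higher in astrocytes. Within the astrocytes, 5 of the 8 rose with *Agt*, the gene for angiotensinogen, which is produced by many brain astrocytes. Of all genes tested, 12.4% were called higher with *Agt*. The call of *Abat*, among these 5, held in 10 of 12 alternative fits.

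Single cells were profiled from the amygdala of young adult wild-type male C57BL/6N mice, taken 90 min after the start of behaviour. There were 4 groups of 4 mice: non-shocked controls (NoFC), mice given foot shocks in a chamber (FC, fear conditioning), mice that were conditioned and then stayed in the home cage (NoFR), and mice that were conditioned and later returned to the chamber (FR, fear recall). FC mice were taken 90 min after conditioning, and NoFR and FR mice a day after it. All mice had been habituated to the chamber, and every dissociation contained blockers of transcription and translation. Cells were sorted after staining with ACSA-2, an antibody to a surface protein of astrocytes, together with antibodies against CD11b, CD45 and O1. Cells of each mouse carried a hashtag antibody before they were pooled into 3 libraries. Each library thus mixed several mice of more than 1 group, and some pooled cells had hashtags listed for none of these mice.

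GABA is the main inhibitory transmitter of the forebrain. Astrocytes clear it from the extracellular space through sodium-coupled carriers and degrade it in their mitochondria, and they also carry GABA-A receptors, chloride channels built from 5 subunits of several classes. *Slc6a11* encodes GAT-3, a GABA carrier found largely on astrocytes. *Slc6a9* encodes GLYT1, which carries glycine rather than GABA and sets glycine levels around NMDA and glycine receptors, and *Abat* encodes GABA transaminase, the first enzyme of GABA breakdown, so neither is a GABA transporter or a receptor subunit. Of the subunits, *Gabra2* and *Gabra4* encode α subunits, *Gabrb1* a β subunit, and *Gabrg1* and *Gabrg3* encode γ subunits.

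On GRCm38 the genes sit on 5 chromosomes (positions from GENCODE vM21, matched by Ensembl identifier). *Slc6a11* (ENSMUSG00000030307) occupies chromosome 6 from 114131241 to 114249952 on the forward strand. *Slc6a9* (ENSMUSG00000028542) lies on chromosome 4 from 117834506 to 117875198 on the forward strand and overlaps the opposite-strand genes *Ccdc24* and *B4galt2*. A cluster on chromosome 5 holds 4 of the subunits. There *Gabrg1* (ENSMUSG00000001260, 70751047 to 70842617) and *Gabra2* (ENSMUSG00000000560, 70957597 to 71095849) are reverse-strand neighbours with no coding gene in the 115.0 kb between them. *Gabra4* (ENSMUSG00000029211, 71569749 to 71658308, reverse) and *Gabrb1* (ENSMUSG00000029212, 71658113 to 72149037, forward) are transcribed away from each other, and their annotated 5′ ends overlap by 196 bp. *Gabrg3* (ENSMUSG00000055026) covers 670724 bp of chromosome 7 from 56716465 to 57387188 on the reverse strand, next to *Gabra5*. *Abat* (ENSMUSG00000057880) runs from 8513429 to 8621568 on the forward strand of chromosome 16. Introns made up between 87.4% (*Slc6a9*) and 98.2% (*Gabrg3*) of the genes' lengths, and the sources used here do not state whether intronic reads were counted and name different versions of the counting software.

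RefSeq promoter windows (GRCm38.p6) matched 7 of the 8 genes, all but *Abat*. The 250 bases before the start are shown for *Slc6a11*, the GABA carrier among the genes that rose with *Agt*, and for the neighbours *Gabrg1* and *Gabra2*, which differed in opposite directions between *Agt* groups. The call of *Gabra2* between these groups held in only 6 of 12 alternative fits. Capitals mark CG dinucleotides, and each sequence reads 5′ to 3′ on the strand of its gene.
Slc6a11, chr6:114130991-114131240, forward strand: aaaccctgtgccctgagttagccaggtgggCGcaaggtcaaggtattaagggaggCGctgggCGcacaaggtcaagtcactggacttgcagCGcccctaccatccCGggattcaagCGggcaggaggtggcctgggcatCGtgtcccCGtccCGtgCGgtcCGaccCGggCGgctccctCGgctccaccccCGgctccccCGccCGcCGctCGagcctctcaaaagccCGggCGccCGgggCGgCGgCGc
Gabrg1, chr5:70842618-70842867, reverse strand: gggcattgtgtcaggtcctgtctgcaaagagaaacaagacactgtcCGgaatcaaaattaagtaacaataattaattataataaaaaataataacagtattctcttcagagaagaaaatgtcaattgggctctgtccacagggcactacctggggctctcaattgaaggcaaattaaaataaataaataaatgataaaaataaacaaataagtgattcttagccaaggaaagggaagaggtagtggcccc
Gabra2, chr5:71095850-71096099, reverse strand: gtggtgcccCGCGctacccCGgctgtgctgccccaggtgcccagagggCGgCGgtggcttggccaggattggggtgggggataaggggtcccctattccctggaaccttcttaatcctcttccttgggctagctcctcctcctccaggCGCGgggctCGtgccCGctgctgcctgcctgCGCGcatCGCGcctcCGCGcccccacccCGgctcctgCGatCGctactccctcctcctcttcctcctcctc
The windows differ widely in composition. That of *Slc6a11* holds 25 CG dinucleotides at 71.2% G+C and that of *Gabra2* holds 18 at 70.0%. In *Gabrg1* there is 1 CG at 35.6% G+C, where 7.86% of the 32841 mouse windows of this length hold fewer and the median is 6. TTGGC, the half-site of nuclear factor I, was searched on both strands together with the TATA box TATAAA and the CCAAT box CCAAT, whose matches can overlap those of TTGGC, as in GCCAAT. The half-site stands once in the *Gabrg1* and once in the *Gabra2* window, and CCAAT once in each of them. None of the 3 motifs is in the *Slc6a11* window, and TATAAA is in none of these windows. Of all windows, 41.5% hold TTGGC, 33.9% CCAAT and 12.4% TATAAA.

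The 3 libraries held 13546 barcodes with 31700569 to 42350059 unique molecular identifiers (UMIs, 1 per captured mRNA molecule). A barcode was taken as an astrocyte with at least 20 UMIs of the glutamate transporter genes *Slc1a2* and *Slc1a3* and at most 3 of the pericyte genes *Vtn* and *Rgs5*, and as a pericyte, a contractile cell of the capillary wall, with at least 10 of the latter and at most 5 of the former. This gave 8757 astrocytes at a median of 9891 UMIs and 2260 pericytes at a median of 5006 UMIs, and 18 barcodes occurred in more than 1 library. All 8 further astrocyte markers had UMIs in the astrocytes of every library. In pericytes, the 7 of them reported here summed to 67.5 to 101 UMIs per 1000000 UMIs of the summed cells (CPM) against 7226 to 7305 CPM in astrocytes. The 8 pericyte markers summed to between 11890 and 12060 CPM in pericytes and to between 172 and 192 CPM in astrocytes. In pericytes, smooth muscle markers summed to 151 to 209 CPM and endothelial markers to 134 to 144 CPM. Markers of oligodendrocyte precursors summed there to 749 to 782 CPM with the defining *Sox10* and *Gpr17* at 0. The precursor list shares *Cspg4* with the pericyte markers. The 9 neuron markers summed to 11.4 to 17.4 CPM in astrocytes.

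The first comparison asked which of the genes belong to astrocytes rather than to the pericytes that came through the same sort. *Slc6a11* was at 518, 549 and 565 CPM in the astrocytes of libraries 1, 2 and 3 and at 8.83, 5.93 and 10.5 CPM in the pericytes. The groups were far apart in every library. The log2 difference between astrocytes and pericytes was 6.22 (standard error 0.0981, edgeR adjusted p = 8.34e-29). A UMI of *Slc6a11* was found in 92.7% of all astrocytes (95% Wilson interval 92.1% to 93.2%) and in 4.25% of pericytes (interval 3.49% to 5.16%). These intervals, like all others given for shares, cover counting error only. *Slc6a9* stood at 69.1, 77.7 and 75.4 CPM in astrocytes and at 2.04, 2.83 and 3.76 CPM in pericytes, a log2 difference of 4.92 (standard error 0.137, edgeR adjusted p = 7.78e-23).

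The α subunit genes were close to 0 in pericytes. *Gabra2* was measured at 154, 161 and 153 CPM in astrocytes and at 1.36, 2.54 and 1.07 CPM in pericytes, where 19 UMIs were counted in all. Its log2 difference was 6.79 (standard error 0.138, edgeR adjusted p = 3.30e-26). *Gabra4* had 69.2, 65.0 and 66.8 CPM in astrocytes against 1.36, 0.848 and 0.268 CPM in pericytes, a total of 10 UMIs in 2260 cells. The log2 difference of *Gabra4* was 6.50 (standard error 0.184, edgeR adjusted p = 1.02e-22). With so few pericyte UMIs, the size of these 2 differences rests on the astrocyte level and a level near 0.

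The β subunit gene *Gabrb1* reached 2848, 3046 and 2966 CPM in astrocytes and 18.6, 19.2 and 19.1 CPM in pericytes. Its UMIs were in 97.3% of astrocytes (interval 96.9% to 97.6%) and in 8.98% of pericytes (interval 7.87% to 10.2%). The log2 difference of 7.50 (standard error 0.0910, edgeR adjusted p = 2.13e-31) had the smallest standard error among the 7 genes other than *Abat*. Of the γ subunit genes, *Gabrg1* was at 250, 261 and 258 CPM in astrocytes and at 2.94, 3.11 and 1.61 CPM in pericytes, with a log2 difference of 6.85 (standard error 0.121, edgeR adjusted p = 1.09e-27). *Gabrg3* was at 131, 139 and 135 CPM in astrocytes and at 0.905, 2.26 and 2.15 CPM in pericytes, with a log2 difference of 6.51 (standard error 0.140, edgeR adjusted p = 1.33e-25).

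*Abat* was the gene with a clear pericyte level. Its astrocyte values were 186, 184 and 192 CPM and its pericyte values 50.5, 59.1 and 69.8 CPM. The log2 difference was 1.88 (standard error 0.0693, edgeR adjusted p = 6.81e-20), a 3.68-fold higher level in astrocytes. A UMI of *Abat* was present in 74.7% of astrocytes and in 23.5% of pericytes (interval 21.8% to 25.3%). As a share of its own astrocyte level, the pericyte level of *Abat* was 27.1% to 36.2% over the libraries. The same share was 0.402% to 4.98% over the other 7 genes. Over the astrocyte markers *Aqp4*, *Gja1*, *Aldoc*, *Gjb6*, *Slc4a4*, *Mlc1* and *Fgfr3* it was 0.511% to 2.36%. *Slc6a9*, at 2.95% to 4.98%, lay above that range, and the part that RNA free in the suspension has in these pericyte UMIs was not tested.

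**Figure D1:**
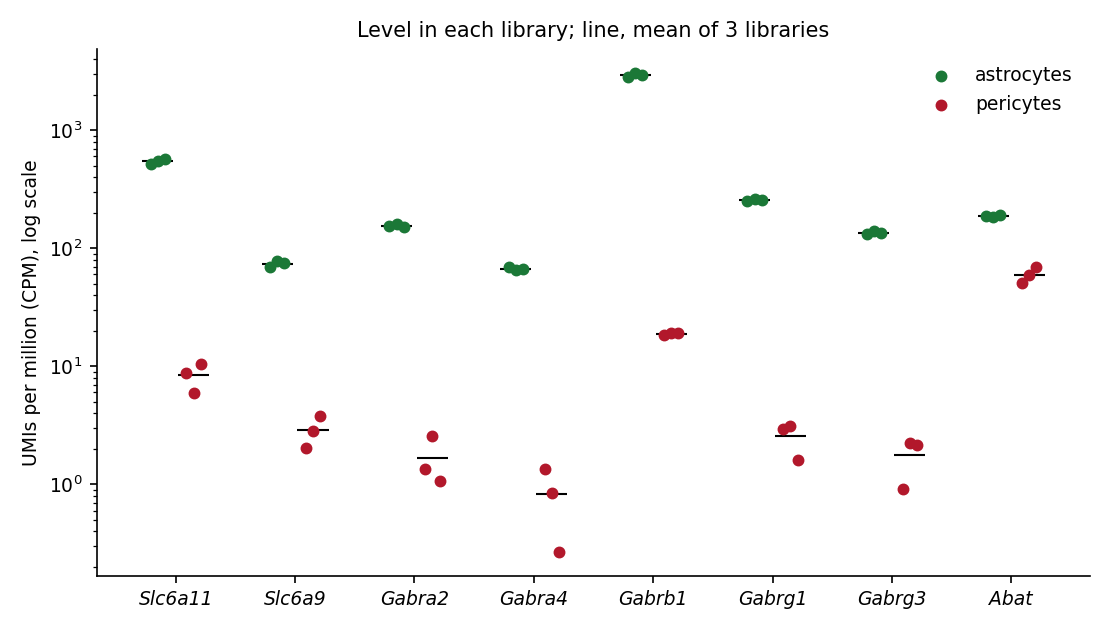
Level of each of the 8 genes in astrocytes (green) and pericytes (red), in CPM on a log axis; each point is 1 of 3 libraries and the line is their mean. The astrocyte and pericyte points of 7 genes are separated by more than 10-fold, whereas those of *Abat* lie at 184 to 192 and 50.5 to 69.8 CPM.

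Astrocytes were higher in the test of all 8 genes, where 42.8% of the 15819 genes tested were higher in astrocytes and 79.0% differed in either direction. The median log2 difference was 6.50 over the 8 genes and 0.12 over all genes tested. The 8 genes were chosen with earlier results of these data known, so the count and the median only describe them. The count of 8 was unchanged in the 9 alternatives run, from DESeq2 to stricter class limits, with log2 differences between 4.75 and 7.98 for the 7 genes other than *Abat* and between 1.77 and 2.00 for *Abat*. With library as a term of the fit, the difference was taken within each of 3 pooled libraries. The p-values rest on how it varied over them together with a spread that edgeR estimates over all genes tested. The mice of a library are not separated in this comparison.

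Shares of cells depend on depth, which was lower in pericytes. After random draws of 3000 UMIs from each cell, for which 541 astrocytes and 157 pericytes were too shallow, a UMI of *Slc6a11* remained in 74.1% to 74.7% of astrocytes and 1.45% to 2.98% of pericytes over the libraries. For *Gabrb1* the thinned shares were 97.4% to 98.6% and 5.31% to 5.96%. *Gabrg1* kept 51.0% to 51.8% of astrocytes and *Abat* 40.9% to 42.9%, with 13.5% to 18.2% of pericytes for *Abat*. Shares of astrocytes were lower for *Gabra2* (28.9% to 31.1%), *Gabrg3* (25.5% to 25.6%), *Slc6a9* (18.5% to 20.3%) and *Gabra4* (15.3% to 16.9%).

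How unevenly the UMIs were spread over astrocytes differed among the genes. With each astrocyte thinned to 5000 UMIs, the variance of the count divided by its mean, which is about 1 for counting noise alone, was 1.19 to 1.22 for *Abat* and 1.23 to 1.30 for *Gabrg1*. *Slc6a9* (1.23 to 1.36) and *Gabra4* (1.30 to 1.32) were close to these. It was 1.71 to 1.93 for *Gabra2* and 1.94 to 2.24 for *Slc6a11*. *Gabrg3* reached 2.37 to 2.64 at a mean of only 0.651 to 0.700 UMIs per cell, with a UMI in 32.7% to 34.0% of cells, so that its UMIs were concentrated in a minority of astrocytes. *Gabrb1* had 3.95 to 4.30 at a mean of 13.85 to 14.75 UMIs. Because this ratio grows with the mean, the values of *Gabrb1* and *Gabrg3* are not on a common footing.

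Pearson's r between log2(count + 1) values was computed over the same thinned astrocytes, in each library, against 6529 genes present in at least 10% of cells. These are descriptions over cells that share libraries and mice, with weak correlations in sparse counts. *Slc6a11* was most like *Gria1*, an AMPA receptor subunit gene (mean r over the libraries 0.335), and *Agt* (0.332). *Slc6a9* was most like *Agt* (0.256) and then *Nkx6-2* (0.213). *Gabrb1* was most like the cell adhesion gene *Lsamp* (0.620) and the glypican gene *Gpc5* (0.618). For *Gabra2* the nearest was *Lsamp* (0.165), for *Gabrg1* *Sparcl1* (0.192) and *Gja1* (0.180), for *Gabrg3* *Erbb4* (0.171) and *Adgrl3* (0.160), for *Abat* *Gria1* (0.122) and *Slc6a11* (0.098), and for *Gabra4* *Ntm* (0.081). Among the 8 genes themselves, the pair with the highest mean r was *Slc6a11* with *Slc6a9* (0.162), followed by *Gabra2* with *Gabrb1* (0.118). *Gabra4* and *Gabrb1*, whose 5′ ends overlap, had a mean r of 0.072.

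The next comparison divided the astrocytes by *Agt*. There were 2813 astrocytes with 0 *Agt* UMIs and 3236 with at least 3, and the cells with 1 or 2 entered neither sum. *Slc6a11* was at 386, 395 and 388 CPM in the astrocytes without *Agt* UMIs of libraries 1, 2 and 3 and at 697, 680 and 739 CPM in those with at least 3. The ranges of the libraries did not overlap, and the log2 difference was 0.88 (standard error 0.0638, edgeR adjusted p = 9.23e-12). The glycine carrier *Slc6a9* rose by more, from 40.8, 41.0 and 46.3 CPM to 103, 112 and 107 CPM. Its log2 difference of 1.36 (standard error 0.0732, edgeR adjusted p = 1.80e-14) corresponded to a 2.56-fold higher level.

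The γ subunit genes rose as well. *Gabrg1* went from 206, 216 and 213 CPM to 291, 287 and 291 CPM, again without overlap between the groups (log2 difference 0.48, standard error 0.0636, edgeR adjusted p = 1.04e-06). *Gabrg3* went from 116, 143 and 125 CPM to 167, 152 and 164 CPM. Library 2 showed the smallest ratio, 1.06, against 1.45 and 1.30 in libraries 1 and 3 (log2 difference 0.37, standard error 0.0741, edgeR adjusted p = 3.62e-04). *Abat* differed little, from 172, 163 and 174 CPM to 200, 200 and 207 CPM, although the groups did not overlap (log2 difference 0.28, standard error 0.0637, edgeR adjusted p = 0.00125).

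The α and β subunit genes did not share this rise. *Gabra2* was lower with *Agt*, at 157, 183 and 179 CPM without *Agt* UMIs and at 149, 149 and 145 CPM with at least 3 (log2 difference −0.19, standard error 0.0675, edgeR adjusted p = 0.0322). This call was lost in 6 of 12 alternatives, among them DESeq2 (adjusted p = 0.12), sums per mouse (adjusted p = 0.769) and leaving out library 2 (adjusted p = 0.251) or library 3 (adjusted p = 0.377). *Gabra4* was at 67.7, 65.9 and 72.4 CPM without and at 74.2, 66.8 and 67.5 CPM with *Agt*. *Gabrb1* was at 2766, 3301 and 3063 CPM without and at 2888, 2961 and 2988 CPM with *Agt*. In both genes the groups overlapped. The 95% interval of the log2 difference ran from −0.09 to 0.19 for *Gabra4* (edgeR adjusted p = 0.683) and from −0.15 to 0.11 for *Gabrb1* (edgeR adjusted p = 0.899), and the sign of each turned in 3 of 12 alternatives.

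**Figure D2:**
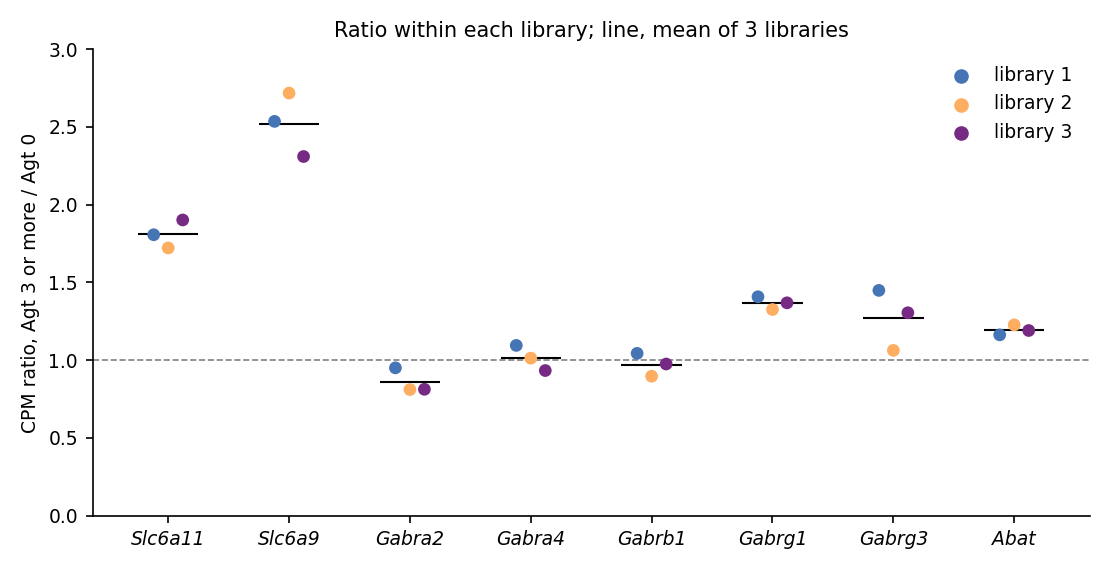
CPM in astrocytes with at least 3 *Agt* UMIs divided by CPM in astrocytes with 0, for each gene; each point is 1 of 3 libraries, the line is their mean and the dashed line marks a ratio of 1. *Slc6a9* lies at 2.31 to 2.72 and *Slc6a11* at 1.72 to 1.90, while *Gabra4* and *Gabrb1* have points on both sides of 1.

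In all, 5 of the 8 genes were called higher with *Agt*, where 12.4% of the 14541 genes tested were, and 1 of 8 was called lower, where 13.7% were. The median log2 difference was 0.33 over the 8 genes and 0.00 over all genes tested. As the 8 were chosen with earlier results of these data known, the count and the median are descriptions here too. *Slc6a11*, *Slc6a9*, *Gabrg1* and *Gabrg3* were called in all 12 alternatives, with log2 differences of 0.78 to 1.09, 1.24 to 1.58, 0.31 to 0.54 and 0.26 to 0.78. *Abat* was called in 10 of the 12. Its call was lost among astrocytes of matched depth (adjusted p = 0.243) and with sums per mouse (adjusted p = 0.207). Taken mouse by mouse, *Slc6a11*, *Slc6a9* and *Gabrg1* were higher with *Agt* in 16 of 16 mice, *Gabrg3* in 14, *Abat* and *Gabra4* in 12, *Gabrb1* in 9 and *Gabra2* in 5.

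The *Agt* groups also differed in other ways. Cells with at least 3 *Agt* UMIs were deeper, at a median of 10306.5 UMIs against 8936. Mitochondrial genes gave 6% or more of the UMIs in 16.6% of the cells without *Agt* and in 0.896% of those with at least 3. Neuron markers summed to 20.2 to 36.0 CPM without *Agt* and to 9.48 to 10.7 CPM with at least 3, with 7 to 9 and 9 of 9 markers present. Astrocyte markers summed to 8962 to 9429 CPM without *Agt* and to between 11320 and 11700 CPM with at least 3. Pericyte markers stood at 167 to 205 CPM without and 176 to 191 CPM with *Agt*. The part of the astrocyte marker level in the differences was not tested. The fit was repeated with only barcodes under 6% mitochondrial UMIs, with only cells of matched depth, and without any cell that had a neuron marker UMI, the last chosen after seeing the data. In that order, the log2 difference was 0.89, 0.83 and 0.78 for *Slc6a11*, 1.34, 1.24 and 1.28 for *Slc6a9*, and 0.47, 0.31 and 0.37 for *Gabrg1*. It was 0.35, 0.31 and 0.34 for *Gabrg3*, 0.31, 0.18 and 0.20 for *Abat*, and −0.18, −0.28 and −0.29 for *Gabra2*. All of these were called except that of *Abat* at matched depth. The level of *Gabrg1* thus differed by less, and that of *Gabra2* by more, at matched depth and without cells with neuron marker UMIs than over all astrocytes.

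Finer steps of *Agt* separated the genes further. From astrocytes with 0 *Agt* UMIs through those with 1 to 2, 3 to 4, 5 to 9 and 10 or more (2813, 2708, 1273, 1246 and 717 cells), the mean of the 3 libraries for *Slc6a11* was 390, 483, 539, 683 and 1042 CPM. *Slc6a9* was at 42.7, 60.3, 78.9, 108 and 158 CPM. In both, the mean was higher at every step, and the ranges of the libraries did not overlap from one step to the next. *Gabrg1* was at 212, 256, 275, 292 and 311 CPM, with its widest gap at the first step. *Abat* was at 170, 185, 188, 198 and 234 CPM, with overlapping ranges in the middle steps. *Gabrg3* was at 128, 111, 144, 161 and 193 CPM, so that cells with 1 to 2 *Agt* UMIs had the lowest mean. *Gabra2* was at 173 CPM in the first step and at 132 CPM in the last, whereas the means of *Gabra4* (62.5 to 76.3 CPM) and *Gabrb1* (2853 to 3043 CPM) had no steady direction. These steps are a description, with no test of their own.

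**Figure D3:**
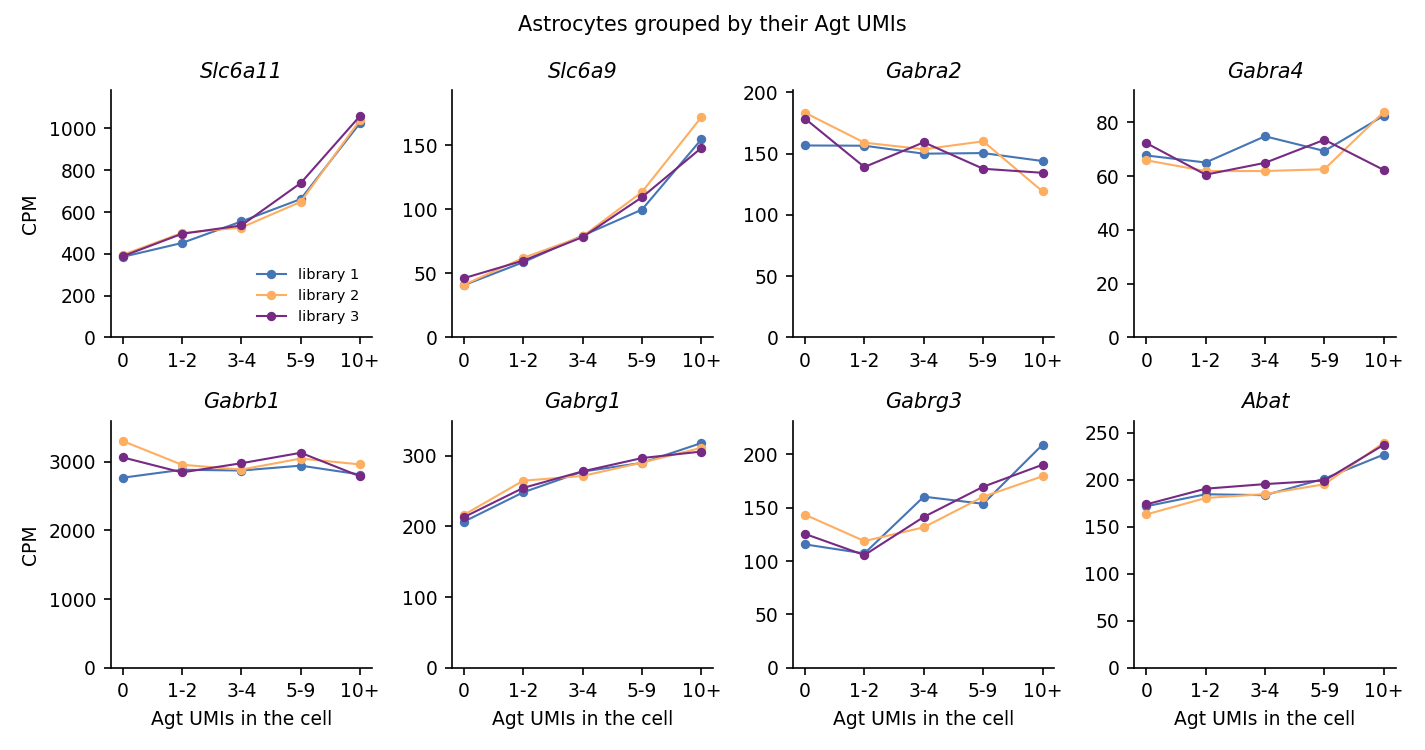
CPM of each gene in astrocytes grouped by their own *Agt* UMIs, from 0 to 10 or more; each line is 1 of 3 libraries and each axis starts at 0. *Slc6a11* lies at 386 to 395 CPM at 0 *Agt* UMIs and at 1026 to 1060 CPM at 10 or more, while *Gabrb1* lies between 2766 and 3301 CPM.

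The last comparison asked whether the genes differed between the groups of mice. Hashtags assigned 1638 astrocytes and 978 pericytes to the 16 mice, with 52 to 230 astrocytes per mouse and 557457 to 2323116 UMIs in their sums. By hashtag, 2589 of the 8757 astrocytes were singlets and 1141 were doublets. The singlets outside the 1638 carried hashtags listed for none of the 16 mice in their library. No cell was left out of the main comparisons by library for its hashtag, so most of their astrocytes were not assigned to a listed mouse. Library 2 held no NoFR and library 3 no FC mice, and the library was a term of the fit. Of the 9787 genes tested in astrocytes, 0.0511% differed between the groups and none of the 8 genes did in edgeR's F test over the 4 groups (adjusted p = 1 for each), nor in DESeq2. Of the 8, 0 had an unadjusted p under 0.05, where 401 of the 9787 genes tested did, so this count does not set the 8 apart.

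*Abat* had the lowest unadjusted p of the 8, 0.12. It was at 172, 198, 152 and 156 CPM in NoFC mice, 204, 221, 194 and 196 CPM in FC mice, 202, 189, 207 and 204 CPM in NoFR mice and 184, 190, 217 and 204 CPM in FR mice. NoFC held the 3 lowest mice, and its highest mouse lay within the range of each other group. The estimated log2 difference was 0.26 (standard error 0.114) for FC minus NoFC and 0.00 (standard error 0.115) for FR minus NoFR.

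*Gabrg3* was at 115, 129, 165 and 129 CPM in NoFC, 122.7, 234, 148 and 130 CPM in FC, 151, 126, 124 and 125 CPM in NoFR and 121, 109, 99.4 and 158 CPM in FR mice. The 4 groups overlapped, and 1 FC mouse stood above all others. *Gabra2* was at 143, 140, 150 and 138 CPM in NoFC, 154, 172, 148 and 98.6 CPM in FC, 146, 135, 189 and 202 CPM in NoFR and 186, 145, 204 and 156 CPM in FR mice. The NoFR mice of library 3 were the pair at 189 and 202 CPM, and those of library 1 the pair at 146 and 135 CPM.

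Spread among all 16 mice was least for *Slc6a11*, with 514 ± 59.6 CPM (SD, n = 4 mice) in NoFC, 523 ± 24.4 CPM in FC, 526 ± 37.0 CPM in NoFR and 551 ± 42.7 CPM in FR. The coefficient of variation over the mice was 7.72% for *Slc6a11* and 22.9% for *Gabrg3*. *Slc6a9* was at 66.2 ± 15.0, 79.1 ± 9.20, 66.7 ± 1.96 and 71.5 ± 10.2 CPM in NoFC, FC, NoFR and FR. *Gabra4* was at 66.2 ± 4.14, 72.6 ± 16.4, 66.6 ± 10.6 and 65.4 ± 14.5 CPM in the same order. *Slc6a9* varied least within NoFR and most within NoFC. *Gabrb1* was at 3028 ± 327, 3104 ± 124, 2980 ± 279 and 2827 ± 154 CPM, and *Gabrg1* at 245 ± 39.4, 254 ± 17.8, 269 ± 17.1 and 245 ± 7.61 CPM. For *Gabrg1* the FR minus NoFR estimate was −0.20 on the log2 scale with a standard error of 0.110.

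**Figure D4:**
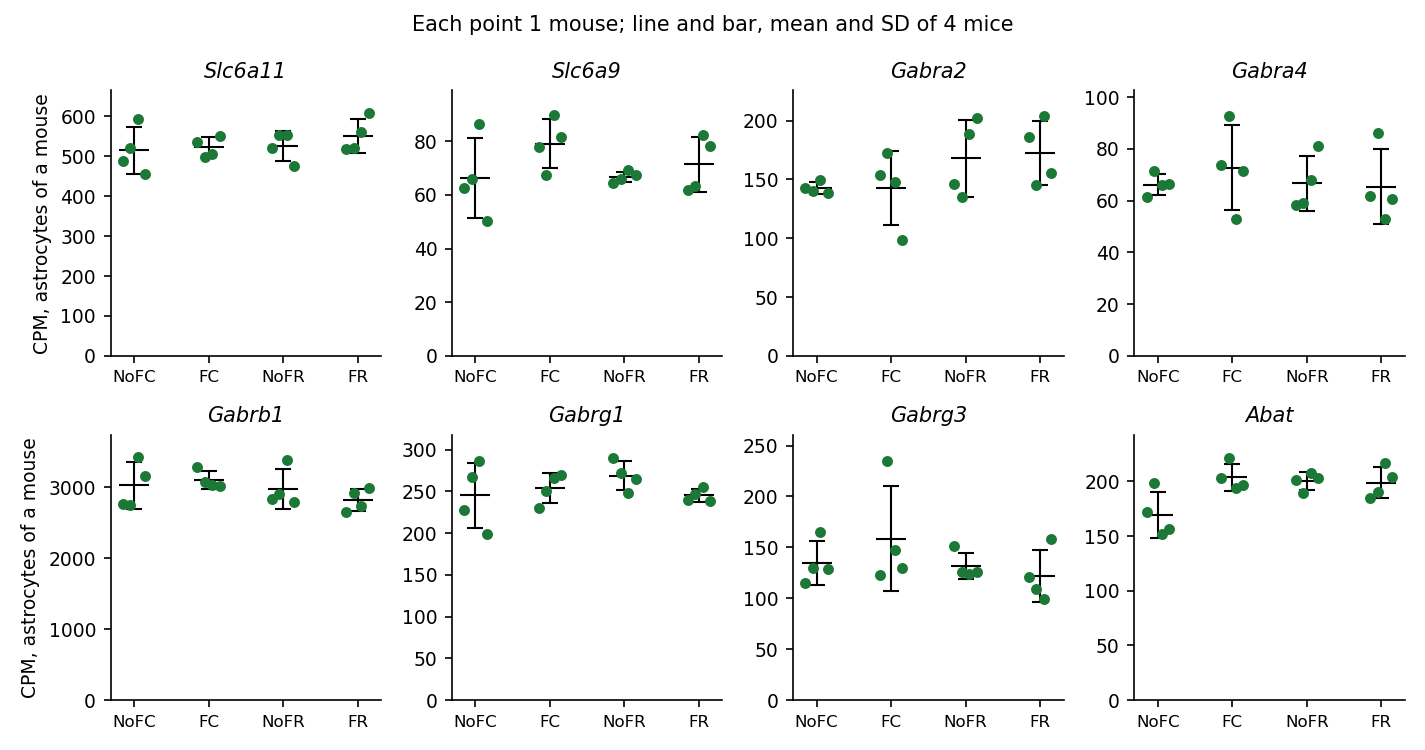
CPM of each gene in the astrocytes of each of 16 mice, by group; each point is 1 mouse, and the line and bar are the mean and SD of 4 mice, with each axis starting at 0. The points of the 4 groups overlap for every gene, and those of *Abat* run from 152 to 198 CPM in NoFC and from 194 to 221 CPM in FC mice.

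In pericytes only *Abat* had enough UMIs to be tested per mouse. It was at 34.4, 25.0, 43.0 and 58.6 CPM in NoFC, 58.1, 33.6, 48.2 and 50.9 CPM in FC, 55.9, 82.9, 66.9 and 61.9 CPM in NoFR and 51.3, 27.4, 82.2 and 38.2 CPM in FR mice. Behind these values stood 4 to 34 UMIs per mouse, and no difference between the groups was detectable at this depth. Its adjusted p in edgeR's F test was 0.785, where 0.696% of 6321 genes were called. *Gabrb1* was at 3.63 to 35.5 CPM in the pericytes of the mice, and each of the other 6 genes had 0 UMIs in at least 1 mouse.

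Of the other carriers of GABA and betaine, 3 were tested and 2 of these were called higher in pericytes, where 36.2% of all genes tested were. These 2 passed the filter on low counts through their pericyte UMIs, so their direction was not open to the test. *Slc6a13*, for the carrier GAT-2 of vessels and meninges, was at 135, 138 and 172 CPM in pericytes, while 30 UMIs were counted in 6 astrocytes. *Slc6a12*, for the betaine and GABA carrier BGT1, had 88 UMIs in pericytes and 8 UMIs in 1 astrocyte. The log2 difference between astrocytes and pericytes was −8.57 for *Slc6a13* (edgeR adjusted p = 2.92e-25) and −6.17 for *Slc6a12* (edgeR adjusted p = 7.22e-11). The vesicular carrier *Slc32a1* had 11 UMIs in astrocytes and 0 in pericytes and was not tested.

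Genes of glycine and taurine handling were mixed. Against pericytes 5 of 8 tested genes were higher in astrocytes and 2 lower, at a median log2 difference of 0.90. Over all genes tested, 42.8% were higher in astrocytes and 36.2% lower. *Gldc*, the decarboxylase of the glycine cleavage system, had a log2 difference of 6.82 (edgeR adjusted p = 1.26e-26), while *Gcsh* (2.05) and *Amt* (0.99), from the same system, were called with smaller ones. *Shmt1*, which interconverts serine and glycine, was called at 1.86 on 4 pericyte UMIs and lost its call in 4 alternatives. It counts among the 5 higher genes but passed the filter on low counts through its astrocyte UMIs, so this direction was not open to the test. With *Agt*, *Gldc* fell where *Slc6a9* rose: it was at 205, 212 and 197 CPM without and 143, 141 and 148 CPM with *Agt* (log2 difference −0.48, edgeR adjusted p = 1.64e-06). *Amt* (0.37) and the taurine carrier *Slc6a6* (0.65) rose and *Shmt1* fell (−2.44, on 16 UMIs with *Agt*). *Shmt1* passed the filter here through the cells without *Agt* UMIs, so its fall was not open to the test. Of 8 tested genes 3 were higher, 2 lower (*Shmt1* included) and 3 not called. Over all genes tested, 12.4% were higher with *Agt* and 13.7% lower. The call of *Amt* was lost in 4 alternatives and that of *Slc6a6* in 2.

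Among the 14 other GABA-A and GABA-rho subunits, 3 passed the filter on low counts. *Gabrr2* had 216 UMIs and *Gabrb2* 109 UMIs in astrocytes, against 3 and 1 in pericytes. All 3 tested subunit genes were called higher in astrocytes, where 42.8% of all genes tested were. *Gabrr2* and *Gabrb2* passed the filter through their astrocyte UMIs, so their direction was not open to the test. None of the 3 was called between the *Agt* groups, where *Gabrr2* had a log2 difference of 0.70 (edgeR adjusted p = 0.0961, but 0.0319 without library 1 and 0.0347 without hashtag doublets). *Gabra5* and *Gabrd*, whose subunits occur outside synapses in neurons, were sparse, with 26 and 14 UMIs over 8757 astrocytes. *Gabrq*, *Gabrr1* and *Gabrr3* had 0, which allows a share of up to 0.0343% of astrocytes with a UMI.

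All 7 tested genes of GABA synthesis and breakdown were higher in astrocytes than in pericytes, at a median log2 difference of 0.98. Of all genes tested, 42.8% were called higher in astrocytes. The count includes *Gad2*, which had no pericyte UMI and so passed the filter on low counts through its astrocyte UMIs only. Next to *Abat*, *Aldh5a1*, which takes the product of GABA transaminase to succinate, was called at 2.34 (edgeR adjusted p = 1.25e-17), and *Maob*, an amine oxidase of the route from putrescine to GABA, at 2.39 (edgeR adjusted p = 4.15e-21). *Aldh9a1* was called at 0.98. *Gad2*, for a GABA-synthesizing enzyme that is also one of the neuron markers, had 86 UMIs in 52 astrocytes and 0 in pericytes, at least 3.66-fold higher against a floor of 3 counts over all pericytes. With *Agt*, *Aldh1a1*, an aldehyde dehydrogenase, fell from 137, 117 and 133 CPM to 70.3, 50.5 and 69.4 CPM (log2 difference −1.0, edgeR adjusted p = 5.91e-12). *Odc1*, which makes putrescine, was called lower (−0.72, edgeR adjusted p = 8.53e-07), a direction that turned among cells of matched depth and without cells that had a neuron marker UMI. *Aldh5a1* was called higher at 0.27 (edgeR adjusted p = 0.00767) and lost its call in 5 alternatives. None of the tested genes of these lists was called between the 4 groups of mice, in astrocytes or pericytes. Of all genes tested, 0.0511% were called in astrocytes and 0.696% in pericytes, so a count of 0 does not set these lists apart.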

How the data were processed

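The deposited tables hold raw UMI counts of genes and hashtags, by barcode, for 3 libraries; replicates were not pooled beyond the mixing of mice. Per the processing notes of the submitters, reads were aligned to mm10 with Cell Ranger 3.0, whereas the headers of the deposited matrices name version 7.0.0. The authors' hashtag table gave each mouse's group, library and hashtag. Counts were summed per library or per mouse and compared with edgeR 4.0.16 (TMM, filterByExpr, quasi-likelihood test, Benjamini-Hochberg adjustment over all genes tested, called under 0.05). Library was a term in each main fit. In the comparisons by library, both sums of a library came from 1 pool. With sums per mouse in the *Agt* comparison, the mouse was the term instead. The alternatives with no replicate block or no library term had no such term. Genes that chose the cells were not tested. Mice were assigned by HTODemux (Seurat 5.3.0, quantile 0.99) singlets, after 3 hashtags under 1000 UMIs in library 2 were dropped. Doublets by hashtag (1141 astrocytes and 691 pericytes) stayed in the comparisons by library, where 1 alternative left them out. Alternatives included DESeq2 1.42.0. The fits were tested on simulated data.

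The members and lists were chosen with earlier results of these data known. Named list genes were up to 4 called genes per list and comparison with the largest log2 differences (where none was called, the 2 with the most UMIs), and for each member the 2 genes with the highest r. Some genes that these rules name are not reported here.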

Additional observations from a re-analysis of the deposited data

Results flagged for a closer look

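*Gabrg3* in the astrocytes of NoFR mouse 1 stood apart from the other NoFR mice. It was at 151 CPM, where the nearest of the other NoFR mice was at 126 CPM and the lowest at 124 CPM, so that the gap was 0.93 of the whole range, above Dixon's 95% critical value for 4 samples. The value rests on 96 UMIs in 63 cells. It was the only one of 36 groups of 4 mice checked in this way, and chance marks about 1 in 20 such groups.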

How the results depend on the processing

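The calls of all 8 genes between astrocytes and pericytes held in each of the 9 alternatives, and without each library in turn the number of called genes ranged from 11357 to 11746. Between the *Agt* groups, DESeq2 called 1748 genes, the depth window 1464 and sums per mouse 934 (of 7951 tested), against 3802, and without a library the number ranged from 2408 to 4006. Of the 8 genes, 5 to 6 were called without a library. The fit with no replicate block, in which the 2 sums of a library are not paired, called 3302 genes, 5 of them among the 8, with *Gabra2* at an adjusted p of 0.0525, and 12295 genes between astrocytes and pericytes. The sign of *Gabra4* turned without replicate 1 (−0.023, and up to 0.11 without another library), in the depth window (−0.20) and without cells with neuron marker UMIs (−0.040). That of *Gabrb1* turned with no filter (0.003), without replicate 2 (0.043, and down to −0.077 without another library) and with sums per mouse (0.10), and that of *Odc1* in the depth window (0.26) and without cells with neuron marker UMIs (0.092). The cause was not tested. Between groups of mice, 5 genes were called in astrocytes, and 138 with no filter, 4 with DESeq2, 0 with filtered barcodes, with no library term, with a hashtag quantile of 0.95 and with strict hashtag calls (342 to 502 genes at an unadjusted p under 0.05, and 56 of 2732 with strict calls), and 3 to 20 without a mouse. In pericytes 44 genes were called, 27 with DESeq2, 87 with no filter, 11 with a quantile of 0.95 and 26 to 60 without a mouse. None of the 8 genes was called in any of these. Without NoFR mouse 3 the 20 genes were called, and without library 3 the 2408. The number of astrocytes with a mouse's hashtag, 52 to 230, limits the comparison of mice.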

Other observations

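The genes that traffic or anchor GABA-A receptors were divided: of 11 tested, 5 were higher in astrocytes, 5 in pericytes and 1 was not called. That is close to the split of all genes tested, 42.8% higher in astrocytes and 36.2% higher in pericytes. *Lhfpl4*, which helps GABA-A receptors to reach inhibitory synapses, had a log2 difference of 4.58 on 6 pericyte UMIs (edgeR adjusted p = 8.55e-13). It counts among the 5 genes higher in astrocytes. As it passed the filter on low counts through its astrocyte UMIs, this direction was not open to the test. *Gphn*, for the anchoring protein gephyrin, was called at 0.99 (edgeR adjusted p = 1.93e-15), while *Gabarapl1* was lower at −0.89. With *Agt*, 1 of 11 was called, and it was higher, where 12.4% of all genes tested were. This was *Clptm1*, a brake on receptor export, at 0.40 (edgeR adjusted p = 7.73e-05), and its call was lost in the depth window.

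Of the chloride handling genes, *Slc12a2*, for the chloride importer NKCC1, was at 727, 809 and 729 CPM in pericytes and at 21.4, 20.0 and 20.0 CPM in astrocytes, a log2 difference of −4.98 (edgeR adjusted p = 9.03e-32). *Slc12a7* (−1.53) and *Ano6* (−1.52) were also higher in pericytes and *Slc4a3* (1.88) in astrocytes. Of 6 tested genes, 2 were higher in astrocytes, 3 lower and 1 not called. Over all genes tested, 42.8% were higher in astrocytes and 36.2% lower. *Slc12a4* was the 1 gene of this list called with *Agt* (0.39, edgeR adjusted p = 2.27e-04), a call lost in the depth window and with sums per mouse. Of all genes tested, 12.4% were called higher with *Agt*.

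*Dbi*, whose product binds the benzodiazepine site of GABA-A receptors, was at 1096, 1058 and 1065 CPM in astrocytes and at 118, 96.9 and 114 CPM in pericytes. *Tspo*, a mitochondrial protein gene that binds related ligands, ran the other way, at 12.4, 12.7 and 10.8 CPM against 120, 108 and 107 CPM. With *Agt*, *Dbi* was called higher (0.45, edgeR adjusted p = 6.78e-06) and *Tspo* lower (−0.42, edgeR adjusted p = 0.0314), the latter with its call lost in 6 of 12 alternatives.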
